A study of Gallus gallus with 8 samples.

Results

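The genes TCF21, BNC1 and BNC2 were followed through all 8 libraries of a chick (Gallus gallus) heart series. They were picked by gene name, and each name stood once among the 17778 genes listed, so all 3 were found. Both these genes and the gene lists used below were chosen with earlier results of these data known. Shares of all genes called are therefore given for scale only and do not test whether the chosen genes are called more often. TCF21 is a basic helix-loop-helix transcription factor that binds DNA together with E proteins. BNC1 and BNC2 are the basonuclins, a pair of zinc finger proteins best known from stratified epithelia and, in mammals, from germ cells. TCF21 and BNC1 both occur in the epicardium, the outer layer of the heart. In mice TCF21 is needed for epicardial cells to become cardiac fibroblasts, and in human stem cell-derived epicardial cells BNC1 and TCF21 mark partly different cells. In the chick the epicardium arises from the proepicardium, a villous outgrowth beside the venous inflow, whose cells attach near the atrioventricular groove and then spread over the chambers.

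Polyadenylated RNA was sequenced from pools of tissue dissected from chick embryos, with 1 pooled library per tissue. The labels name no treatment or mutation and no number of embryos per pool. The heart supplied 4 libraries: the developing sinoatrial node, labelled as the pacemaker region; the atrioventricular junction at Hamburger-Hamilton (HH) stage 17 to 18; the left atrium; and the apex of the common ventricle. For the node, the atrium and the ventricle the labels name no stage, so differences of region and of stage cannot be told apart. The lateral plate mesoderm at HH 8 supplied the other 4: the pacemaker progenitor field, and the anterior, left and posterior plate. Total counts ran from 10258697 to 17189803 per library. The labels held for heart against mesoderm: 10 heart muscle genes summed to between 27387 and 31510 CPM (the count scaled to a fixed library total) in the heart libraries and to between 566 and 1105 CPM in the mesoderm. That sum does not tell the 4 heart regions from each other. The epicardial markers WT1 and TBX18 were not matched by name and are not analysed here, so epicardium itself could not be checked by its defining genes.

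Levels below are CPM after scaling between libraries, each with an exact 95% Poisson interval in brackets. Between 2 genes such levels also depend on transcript length, so levels are compared between libraries and never between genes. With 1 library per tissue no difference could be set against replicates, so none carries a p-value. Every interval holds the error of counting alone and ignores that PCR copies of a molecule are not independent. In pooled tissue, fewer cells of a type and less RNA per cell cannot be told apart.

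TCF21 was highest in the node and the junction, intermediate in the early mesoderm and lowest in the chambers. It stood at 138 CPM (132 to 145) in the node and 140.0 CPM (133 to 147) in the junction. The left atrium had 15.9 CPM (13.9 to 18.1) and the ventricle 23.3 CPM (20.3 to 26.7). In the mesoderm it had 105 CPM (100.2 to 109.5) in the pacemaker field, 100.5 CPM (94.8 to 106.5) in the anterior plate, 54.3 CPM (50.9 to 57.9) in the left plate and 78.9 CPM (73.9 to 84.2) in the posterior plate. These levels rest on 215 counts or more in every library. Node and junction were not apart, and neither were the pacemaker field and the anterior plate. Every other pair of neighbours in the order of levels was apart by counting error, as were 26 of all 28 pairs of libraries.

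BNC1 showed the same high pair at a much thinner depth. It had 8.69 CPM (7.21 to 10.4) in the node and 8.34 CPM (6.75 to 10.2) in the junction, from 121 and 96 counts. The atrium had 1.78 CPM (1.17 to 2.61) and the ventricle 1.95 CPM (1.16 to 3.09), from 26 and 18 counts. Mesoderm levels were 3.03 CPM (2.29 to 3.93) in the pacemaker field, 2.97 CPM (2.06 to 4.15) in the anterior plate, 3.24 CPM (2.45 to 4.21) in the left plate and 2.32 CPM (1.53 to 3.37) in the posterior plate. Only the step from the junction to the left mesoderm, at 2.57-fold (1.83 to 3.65), separated neighbours in the order. Below it the other 6 libraries formed a continuous series in which no neighbours were apart, and none of the 6 mesoderm pairs was. Within that series only the left plate and the field were apart from the atrium, at 1.82-fold (1.12 to 3.01) and 1.70-fold (1.05 to 2.82).

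BNC2 followed the order of BNC1 at its top. It had 12.8 CPM (10.98 to 14.8) in the node and 10.3 CPM (8.48 to 12.3) in the junction. The atrium had 2.33 CPM (1.62 to 3.26) and the ventricle 2.17 CPM (1.33 to 3.35), from 34 and 20 counts. In the mesoderm it stood at 4.06 CPM (3.19 to 5.08) in the pacemaker field, 4.89 CPM (3.70 to 6.35) in the anterior plate, 3.24 CPM (2.45 to 4.21) in the left plate and 3.86 CPM (2.82 to 5.17) in the posterior plate. The only neighbours apart were the junction and the anterior plate, at 2.09-fold (1.51 to 2.93). Farther apart in the order, the anterior plate, the field and the posterior plate each exceeded both chambers by counting error. The anterior plate over the ventricle was 2.25-fold (1.33 to 3.97), while the left plate was apart from neither chamber. Of the 6 mesoderm pairs, 1 was apart for BNC2, at 45 to 75 counts per library. For TCF21 5 were apart, at 920 to 1937 counts, so the 2 numbers also reflect depth.

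**Figure D1:**
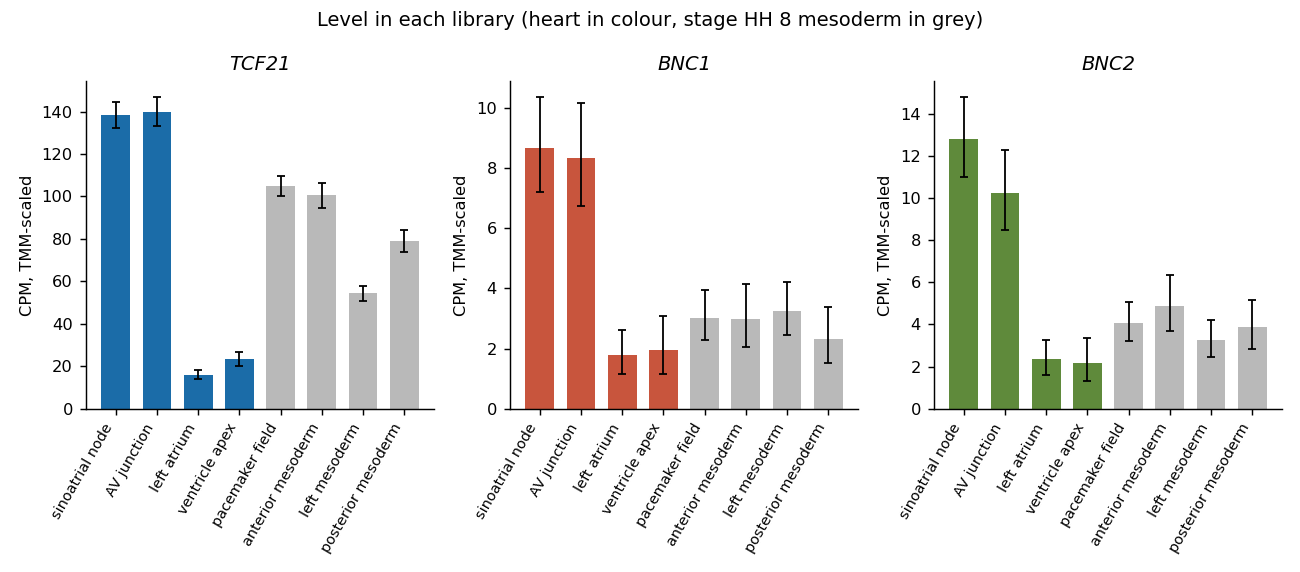
Level of each gene in CPM after scaling (y axis, from 0, with its own range for each gene) in the 8 libraries (x axis), heart libraries in colour and HH 8 mesoderm in grey, with exact 95% Poisson intervals. In every panel the node and junction bars are the tallest 2, and the chambers are the lowest 2 for each gene. Chamber intervals overlap those of every mesoderm library for BNC1, and of all but the anterior plate for BNC2.

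The first comparison set the inflow pacemaker region against the working chambers. A gene was called when it differed at least 2-fold, on log2 of CPM + 1, from every library it was set against, reached 5 CPM in the higher one, and had a counting interval of the fold that did not include 1. All 3 genes were called higher in the node than in both chambers, where 3.11% of 9787 tested genes were called higher and 1.46% lower. TCF21 was 8.69-fold (7.58 to 10.0025) above the atrium and 5.93-fold (5.15 to 6.86) above the ventricle. BNC1 was 4.87-fold (3.17 to 7.76) above the atrium and 4.45-fold (2.70 to 7.76) above the ventricle. BNC2 was 5.48-fold (3.78 to 8.16) above the atrium and 5.89-fold (3.70 to 9.88) above the ventricle. Ranked by the smaller of the 2 log2 ratios, 35 genes stood above TCF21, 73 above BNC2 and 109 above BNC1.

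The atrioventricular junction, from which valve tissue later forms, gave almost the same picture. All 3 genes were called higher than in both chambers, where 2.11% of 9720 tested genes were called higher and 1.54% lower. TCF21 was 8.80-fold (7.66 to 10.1) above the atrium and 6.002-fold (5.20 to 6.95) above the ventricle. For BNC1 the folds were 4.67 (3.004 to 7.51) and 4.27 (2.56 to 7.51) in the same order, and for BNC2 4.39 (2.98 to 6.64) and 4.72 (2.92 to 8.01). Here 15 genes ranked above TCF21, 52 above BNC2 and 64 above BNC1. The node and the junction share their chamber references, so these are not independent comparisons. In total 86 genes were called higher in both, which is 28.3% of the 304 called in the node, 42.0% of the 205 called in the junction and 0.867% of the 9916 genes tested in either.

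**Figure D2:**
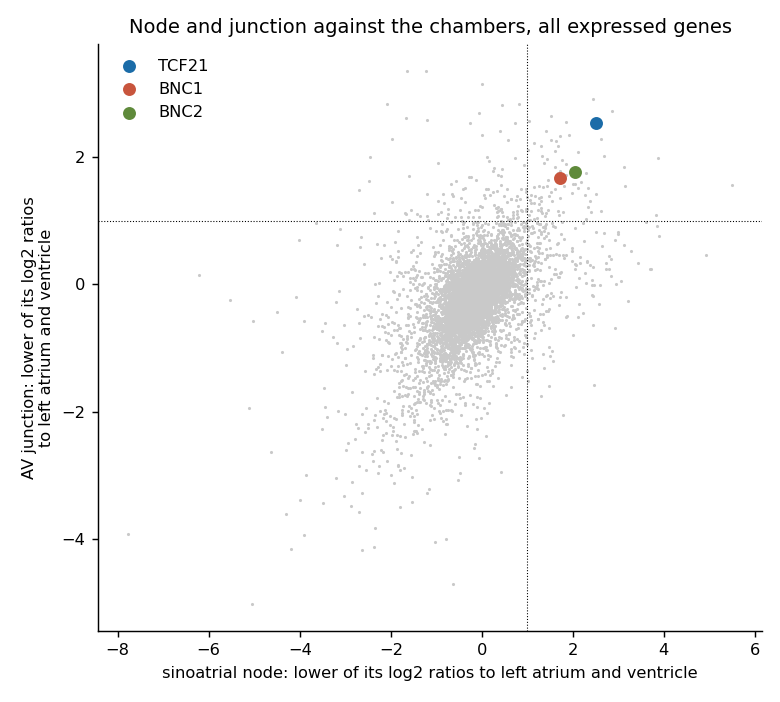
For each gene tested (grey points), the lower of its 2 log2 ratios of CPM + 1 to left atrium and ventricle, in the sinoatrial node (x axis) and in the atrioventricular junction (y axis); dotted lines mark the 2-fold limit. TCF21 lies at 2.52 and 2.54, BNC1 at 1.71 and 1.66, and BNC2 at 2.05 and 1.75, all towards the upper right corner.

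Set against each other, node and junction gave no call for any of the 3 genes, where 3.81% of 9594 genes were called higher in the node and 3.39% lower. The fold of node over junction was 0.988 (0.924 to 1.06) for TCF21, 1.04 (0.791 to 1.38) for BNC1 and 1.25 (0.983 to 1.59) for BNC2. Each interval lies within 2-fold, so a larger gap in either direction falls outside counting error. For TCF21 the sign depends on the scaling: by total counts alone it had 137 CPM in the node and 119 CPM in the junction, while that scaling also moved the median of all tested genes by 0.21 log2 units. Between the chambers only TCF21 reached the level at which genes were tested. It stood in the atrium at 0.682-fold (0.564 to 0.825) of the ventricle, inside the 2-fold limit, where 4.3% of 9441 genes were called higher in the atrium and 3.09% lower. The folds of atrium over ventricle were 0.914 (0.482 to 1.77) for BNC1 and 1.08 (0.601 to 1.97) for BNC2, so wide that a gap of nearly 2-fold was not detectable at this depth.

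**Figure D3:**
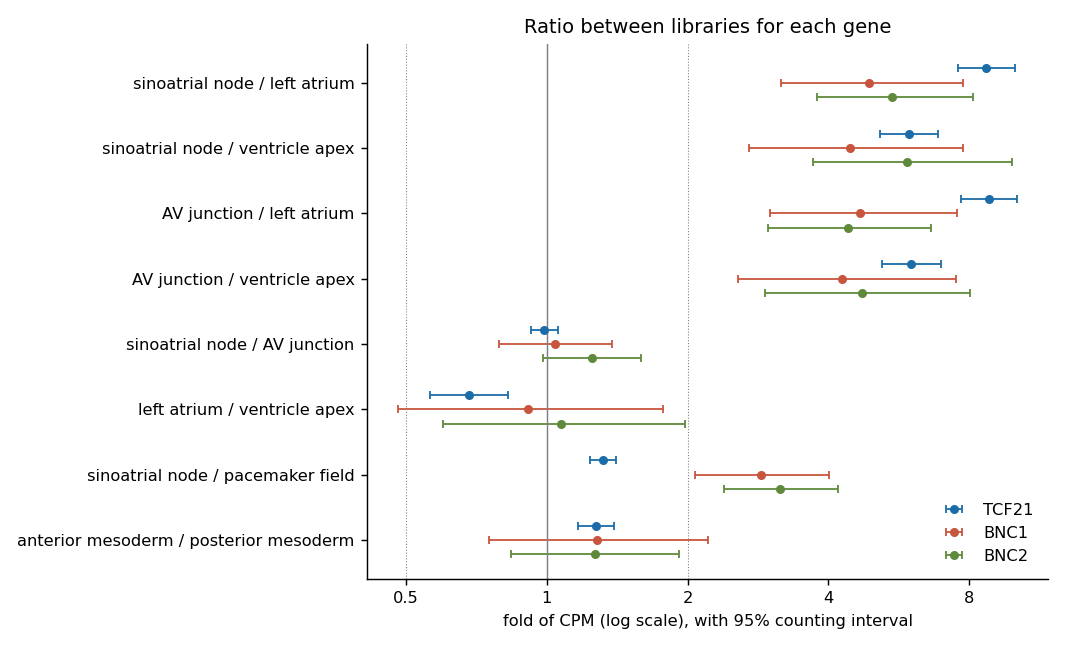
Fold of CPM between pairs of libraries (x axis, log scale; the library named first is on top of the fold) with 95% counting intervals, for TCF21, BNC1 and BNC2; the solid line marks no difference and dotted lines the 2-fold limits. All 12 folds of node or junction over a chamber lie above 4, and for node over pacemaker field TCF21 at 1.32 lies apart from BNC1 at 2.87 and BNC2 at 3.15.

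Across time, the question was how the genes stood in the heart relative to the HH 8 plate, whose front part forms the heart. None of the 3 was called between all 4 heart and all 4 mesoderm libraries, where 5.62% of 10454 genes were higher and 2.53% lower. For BNC1 and BNC2 no call was possible there, since both chambers and the mesoderm lay under 5 CPM. The heart libraries lay on both sides of the mesoderm, so each pair of heart regions was then taken alone, a step added after the values had been seen. In node and junction together against the mesoderm, BNC1 was called higher, where 8.02% of 10243 genes were called higher and 3.35% lower. BNC2 missed the limit, with a smallest log2 ratio of 0.93, and TCF21 had 0.40. For BNC2 that was junction over anterior plate, at 2.09-fold (1.51 to 2.93) without the added 1 CPM. In both chambers together against the mesoderm, TCF21 was called lower, where 8.06% of 10213 genes were called higher and 4.57% lower. Its log2 ratios there ran from -2.64 to -1.19. The basonuclins never reached 5 CPM in those 6 libraries and were not tested.

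From the pacemaker field to the node that the labels name as pacemaker region, TCF21 and the basonuclins went different distances. BNC1 was 2.87-fold (2.07 to 4.01) and BNC2 3.15-fold (2.39 to 4.19) higher in the node than in the field. Both were called, in a comparison where 15.3% of 9820 genes were called higher and 8.55% lower. TCF21 was at 1.32-fold (1.24 to 1.41) of the field in the node and was not called. By total counts alone it had 119 CPM in the junction, against 120.2 CPM in the field, so the place of the junction above the field depends on the scaling.

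Within the HH 8 plate TCF21 varied by up to 1.93-fold, BNC1 by up to 1.40-fold and BNC2 by up to 1.51-fold. Of the 12 basonuclin pairs 1 was apart by counting error. The basonuclins had 27 to 75 counts per plate library, against 920 to 1937 for TCF21, so gaps of like size were harder to detect. BNC1 and BNC2 stayed under 5 CPM in the whole plate, so they were not tested there and could not be called. TCF21 was not called in the pacemaker field against the rest of the plate, where 0.054% of 9264 genes were called higher and 0% lower. Nor was it called in the anterior against the posterior plate, where 0.905% of 9056 genes were higher and 1.04% lower. TCF21 was 1.93-fold (1.78 to 2.09) higher in the field than in the left plate and 1.33-fold (1.23 to 1.44) higher than in the posterior plate. Over the anterior plate the fold was 1.04 (0.969 to 1.12). TCF21 was 1.27-fold (1.17 to 1.39) higher in the anterior than in the posterior plate. The same fold was 1.28 (0.751 to 2.21) for BNC1 and 1.27 (0.841 to 1.92) for BNC2, with intervals that held 1.

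A ratio between 2 genes within a library, set against the same ratio in another, is free of both library scaling and gene length. By this measure BNC1 and BNC2 were not told apart: in none of the 28 pairs of libraries did the exact 95% interval of their ratio of folds exclude 1. Those intervals were wide, for example 0.614 to 2.04 for node over atrium and 0.708 to 1.70 for node over field. TCF21 parted from both. Between a heart and a mesoderm library, BNC1 stood higher relative to TCF21 in the heart in 13 of 16 pairs, and BNC2 in 14 of 16. The other pairs, whose intervals held 1, were all with the left plate. For BNC1 they were those of node, junction and ventricle, and for BNC2 those of junction and ventricle. From field to node the basonuclin fold exceeded the TCF21 fold by 2.17 times (1.56 to 3.06) for BNC1 and 2.39 times (1.80 to 3.19) for BNC2.

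Inside the heart that difference ran the other way for the left atrium. TCF21 was raised more than the basonuclins in the node over the atrium, with a ratio of folds of 0.561 (0.356 to 0.913) for BNC1 and 0.631 (0.423 to 0.963) for BNC2. For the junction over the atrium it was 0.532 (0.333 to 0.874) and 0.4997 (0.329 to 0.774). Against the ventricle no such interval excluded 1. Counts of BNC1 per 100 counts of TCF21 were 6.28 in the node, 5.96 in the junction, 11.2 in the atrium and 8.37 in the ventricle. In the mesoderm they were 2.89 in the field, 2.96 in the anterior plate, 5.96 in the left plate and 2.93 in the posterior plate. The left plate, with the lowest TCF21 level of the plate and a BNC1 level not apart from the others, matched the junction in this ratio. These are 84 intervals over 3 pairs of genes, with no adjustment for their number.

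**Figure D4:**
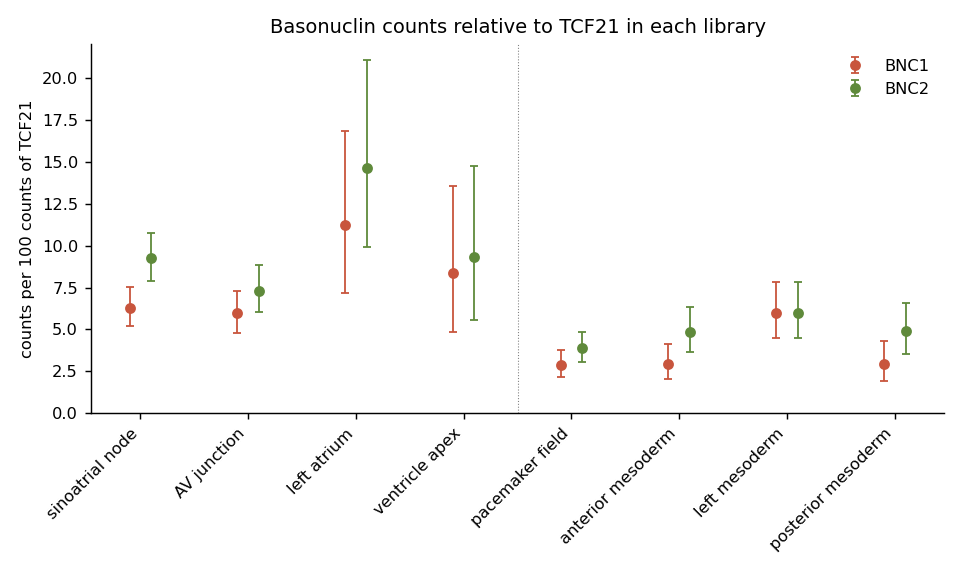
Counts of BNC1 and BNC2 per 100 counts of TCF21 (y axis) in each library (x axis; heart left of the dotted line, HH 8 mesoderm right of it) with exact 95% counting intervals. The highest ratios are those of the left atrium, 11.2 for BNC1 and 14.7 for BNC2, and the lowest those of the pacemaker field for BNC2, at 3.87, and for BNC1, at 2.89.

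Likeness of pattern was measured as Pearson r of log2(CPM + 1) over the 8 libraries, a description over points that share stage, region and depth differences. BNC1 and BNC2 had r = 0.964, and 2 genes at 10 CPM or more were nearer to each of them. TCF21 had r = 0.828 with BNC2, where 51 genes were nearer to TCF21, and r = 0.754 with BNC1, where 117 were. Within the 4 heart libraries r was 0.981 or more for all 3 pairs. There each gene has a high pair, node and junction, and a low pair, the chambers. This r therefore largely restates the calls against the chambers. Within the 4 mesoderm libraries r was 0.858 for TCF21 with BNC2, -0.171 for TCF21 with BNC1 and -0.138 for the basonuclins. In the mesoderm 0 of 6 pairs of libraries were apart by counting error for BNC1 and 1 of 6 for BNC2. The mesoderm values of r alone therefore do not show whether the patterns of the genes differ there. By the ratio of folds, the interval for BNC1 against TCF21 excluded 1 in 3 of 6 mesoderm pairs. For BNC2 against TCF21 it did so in 1 of 6, and between the basonuclins in 0 of 6. Each pair that excluded 1 held the left plate. For field over left plate the ratio was 0.485 (0.326 to 0.721) for BNC1 and 0.649 (0.449 to 0.944) for BNC2. The 5 nearest were then taken from the genes listed under a symbol, 4484 of these at 10 CPM or more for TCF21 and BNC2 and 4485 for BNC1, so nearer genes without a symbol are left out. Nearest to TCF21 within that set were CA10 (0.955), JAM3 (0.940), ZNF516 (0.934), MRC2 (0.926) and TRUB1 (0.902). Within the mesoderm libraries alone, r with TCF21 was 0.911 for JAM3 and 0.893 for TRUB1. It was -0.227 for CA10, -0.121 for ZNF516 and -0.525 for MRC2. Of these, CA10, a carbonic anhydrase-related protein, had 17.0 and 17.4 CPM in node and junction, 2.88 and 4.77 CPM in atrium and ventricle, and 9.87 to 12.4 CPM in the mesoderm. Within it, nearest to BNC1 were SRGAP2 (0.983), BNC2 (0.964), TMEM119 (0.958), HMGCLL1 (0.948) and SYDE2 (0.939). Of the same set, BNC2 was most like HMGCLL1 (0.966), ARSI (0.963), TEF (0.960), GDF7 (0.955) and HMBOX1 (0.949). BNC1 stayed under 10 CPM and so lies outside that set. Pearson r takes no account of the size of a change. TEF ran only from 14.3 to 20.5 CPM over the 8 libraries, while ARSI ran from 1.74 to 10.5 CPM and BNC2 from 2.17 to 12.8 CPM. The 5 nearest to TCF21 depend on scaling, since 2 of them were kept by total counts alone.

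Other genes of the epicardium were called beside the 3 genes in part. Of 26 further epicardial genes listed, 12 were found by name and 7 reached 5 CPM in the libraries of each chamber comparison. In the node 2 of 7 were called higher than both chambers and none lower, with a median log2 ratio of 0.91, against -0.01 over all genes tested. In the junction 2 of 7 were higher and none lower, with a median of 1.18, against -0.02 over all. Among all tested genes 3.11% were called higher and 1.46% lower in the node, and 2.11% higher and 1.54% lower in the junction. SEMA3D, a secreted guidance cue, was called in both, at 26.4 CPM in the node and 77.6 CPM in the junction, against 9.26 CPM in the atrium and 12.4 CPM in the ventricle. ALDH1A2, which makes retinoic acid, was called in the node at 517 CPM, against 252 and 169 CPM in atrium and ventricle, and had 469.8 CPM in the junction, short of the limit there. LRRN4, a mesothelial membrane protein, was called in the junction at 118 CPM, against 41.4 and 39.2 CPM, and had 76.6 CPM in the node. PODXL, GATA4, TBX5 and ALCAM were called in neither. PODXL had 135 and 131 CPM in node and junction, against 78.3 and 98.4 CPM in atrium and ventricle. GATA4 had 157 and 109 CPM, against 82.0 and 77.5 CPM. TBX5 had 481 and 612 CPM, against 777 and 308 CPM, and ALCAM 155 and 294 CPM, against 176 and 63.4 CPM. The mesothelial genes UPK3B, UPK1B, MSLN and RSPO1, and the listed gene CFI, were under 5 CPM in every heart library. MSLN had 4.09 and 2.43 CPM in node and junction, against 1.78 and 0.868 CPM in atrium and ventricle. RSPO1 had 1.01 and 0.869 CPM, against 0.137 and 0.109 CPM. UPK1B had 1.51 and 0.0869 CPM, against 0.412 CPM and 0 counts, and CFI 0.934 and 0.782 CPM, against 1.10 and 0.434 CPM. UPK3B had 0 counts in the node and ventricle, which allows up to 0.216 and 0.326 CPM, and 0.174 and 0.206 CPM in the junction and atrium, against 2.37 to 7.64 CPM in the mesoderm.

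**Figure D5:**
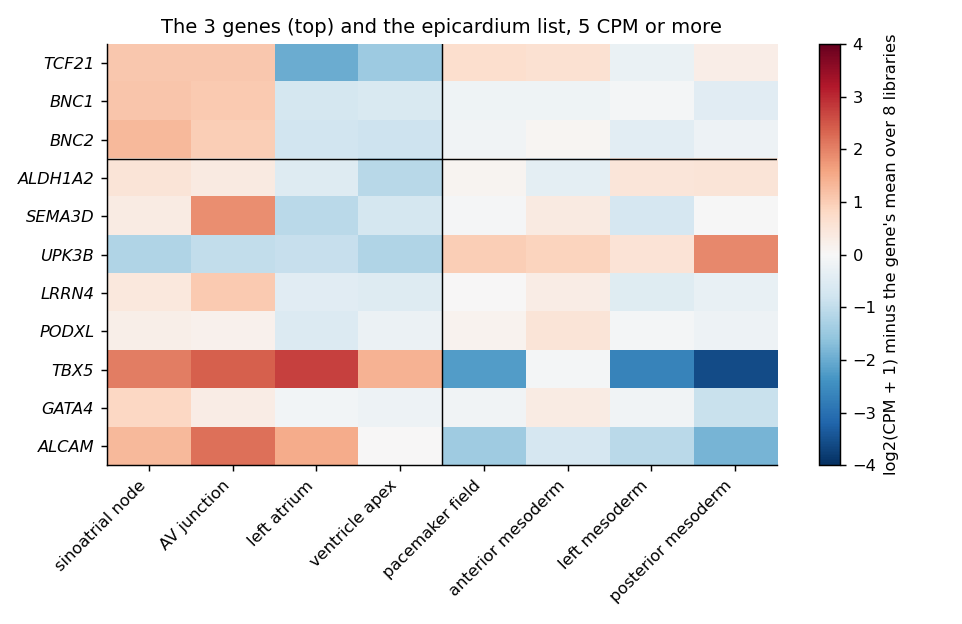
log2(CPM + 1) of each gene minus its mean over the 8 libraries (colour), for TCF21, BNC1 and BNC2 above the line and the genes of the epicardium list that reached 5 CPM below it; heart libraries stand left of the vertical line. TCF21, BNC1 and BNC2 are red in node and junction and blue in both chambers, while TBX5 is red in all 4 heart libraries and UPK3B is blue in all 4.

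Genes listed for induction of the proepicardium, both signals and transcription factors, were called higher in the same libraries in part. Of 12 listed genes 8 were found; 3 of 7 tested were called higher in the node and 2 of 6 in the junction, none lower, where 3.11% and 2.11% of all tested genes were called higher. The medians were 0.69 in the node and 0.78 in the junction, against -0.01 and -0.02 over all genes tested. Those called were all secreted signals. HAND2, GATA6, CFC1 and TBX5, which is also on the epicardium list, were called in neither. BMP2, a secreted growth factor, had 62.4 CPM in the node and 55.6 CPM in the junction, against 15.4 CPM in the atrium and 2.496 CPM in the ventricle. BMP4, of the same family, had 51.0 and 46.6 CPM in node and junction, against 16.0 and 15.7 CPM. FGF8 was called in the node alone, at 5.60 CPM, against 0.412 CPM in the atrium and 1 count in the ventricle. The closest relative of TCF21 on the list of helix-loop-helix genes, MSC (musculin), was low throughout, at 4.53 and 2.95 CPM in node and junction, 1.10 and 0.543 CPM in atrium and ventricle, and 0.343 CPM or less in the mesoderm.

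Genes of the lineages that epicardial cells can enter were mixed. In the fibroblast list 4 of 12 tested members were higher and 1 lower in the node, and 3 higher and 1 lower in the junction, with medians of 1.002 and 0.71. Over all tested genes 3.11% were higher and 1.46% lower in the node, and 2.11% higher and 1.54% lower in the junction. VIM, the intermediate filament vimentin, was called in the node at 2302 CPM and not in the junction at 783 CPM, against 684 and 431 CPM in atrium and ventricle. COL6A3, a chain of collagen VI, was likewise called in the node alone, at 50.2 CPM with 14.2 CPM in the junction, against 11.3 and 2.60 CPM. COL3A1, a fibrillar collagen, had 81.3 and 82.3 CPM in node and junction, against 20.4 and 24.6 CPM in atrium and ventricle. FBLN1, a matrix glycoprotein, had 16.2 and 35.5 CPM, against 7.14 and 7.49 CPM. PDGFRA, a receptor of fibroblast progenitors, was called in the junction, at 22.9 CPM, and not in the node, at 15.8 CPM, against 3.91 and 8.46 CPM in atrium and ventricle. FN1, fibronectin, was the member called lower, at 423 and 943 CPM, against 2460.5 and 3037 CPM. PDGFRB, COL1A2, DCN, FBLN2, THY1 and MDK were tested and called in neither. COL1A2 had 253 and 289 CPM in node and junction, against 114 and 212 CPM, and MDK 524 and 506 CPM, against 398 and 440 CPM. DCN had 38.9 and 12.8 CPM, against 12.8 and 23.4 CPM, and PDGFRB 9.48 and 4.43 CPM, against 3.43 and 6.40 CPM. THY1 had 27.7 and 16.7 CPM, against 21.7 and 8.68 CPM, and FBLN2 79.0 and 151 CPM, against 98.9 and 57.9 CPM. In the smooth muscle list 4 of 8 were higher in the node and 2 of 8 in the junction, none lower, and the median was 1.22 in the node but -0.05 in the junction. MYLK, the myosin light chain kinase, was called in both, at 70.0 and 39.2 CPM, against 13.0 and 5.97 CPM. MYH11, smooth muscle myosin, was the other gene called in both, at 19.1 and 20.6 CPM, against 6.04 and 6.40 CPM. MYOCD, a coactivator of muscle genes, was called in the node alone, at 93.3 CPM with 21.7 CPM in the junction, against 25.2 and 23.7 CPM. The smooth muscle actin gene ACTA2 was also called there alone, at 773 CPM with 199.8 CPM in the junction, against 303 and 131 CPM. TAGLN, DES, SRF and CALD1 were called in neither. TAGLN had 48.4 and 28.6 CPM in node and junction, against 27.4 and 74.5 CPM, and DES 394 and 217 CPM, against 306 and 408 CPM. SRF had 100.5 and 69.7 CPM, against 78.5 and 71.3 CPM, and CALD1 103 and 66.4 CPM, against 71.4 and 38.1 CPM.

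Markers of other tissues that the pools could hold were summed in each library. The summed level of 7 endoderm and liver genes was 3081 CPM in the node and 1199.7 CPM in the junction, against 1452 and 480.03 CPM in atrium and ventricle, and 1606 to 2160.3 CPM in the mesoderm. Most of it came from APOA1, an apolipoprotein, at 1489 CPM in the node and 436 CPM in the junction, against 635 and 98.4 CPM, and from GATA5, a factor of endoderm and also of heart, at 1556 and 752 CPM, against 801 and 358 CPM. FGB, a fibrinogen chain of liver, had 10.99 CPM in the node and 1.82 CPM in the junction, against 1.03 and 1.30 CPM in the chambers, and 139 to 172 CPM in the mesoderm. FGA, another fibrinogen chain, had 6.68 CPM in the node and 0 counts in the junction and both chambers, which allows up to 0.261, 0.206 and 0.326 CPM. APOA1, FGB and FGA were the 3 of 5 tested members called higher in the node than in both chambers, and 0 of 3 were called in the junction. GATA5 and HHEX were the tested members not called. HHEX had 13.3 and 9.03 CPM in node and junction, against 13.2 and 21.7 CPM. ALB and TTR stayed under 5 CPM in the heart. ALB had 0.503 and 0.782 CPM, against 0.343 and 0.434 CPM. TTR had 4.67 CPM in the node, 0.137 CPM in the atrium and 0 counts in junction and ventricle. Over all tested genes 3.11% were called higher in the node and 2.11% in the junction. The median log2 ratio of the list was 2.47 in the node and 0.49 in the junction, against -0.01 and -0.02 over all genes tested. The 4 surface ectoderm genes found summed to 38.8 CPM in the node and 87.0 CPM in the junction, against 88.7 and 79.3 CPM in the chambers. In the mesoderm they summed to 199 to 230 CPM. Most of the heart sums came from CDH1, at 27.1 and 74.4 CPM in node and junction, against 68.4 and 67.6 CPM. EPCAM had 6.82 and 9.56 CPM, against 17.7 and 10.4 CPM, and DLX5 0.782 CPM or less. GRHL3 was highest in the node, at 4.81 and 2.26 CPM, against 2.33 and 1.19 CPM. TP63, KRT5, KRT14 and KRT15 were not found by name. The 5 germ cell genes found stayed at 2.52 CPM or less in each heart library. Endothelial genes summed to 340.2 CPM in the node and 208 CPM in the junction, against 346 and 354 CPM, and erythroid genes to 18182 and 12554 CPM, against 34858 and 16313 CPM. In the node 1 of 10 tested endothelial genes, VWF, was called higher and 0 lower. In the junction 0 of 9 were called higher and 3 lower, namely TEK, CD34 and SOX7. Over all tested genes 1.46% were called lower in the node and 1.54% in the junction. Endothelial medians were -0.01 in the node and -1.19 in the junction. The heart muscle sum was 27387 and 27666 CPM in node and junction, against 31510 and 29028 CPM. The part of these tissues in the levels of the 3 genes was not tested.

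The deposited tables give coordinates without naming a build. In them the genes lie on different chromosomes, all on the minus strand. TCF21 lies on chromosome 3 from 58219116 to 58221228, BNC1 on chromosome 10 from 12989428 to 13007552, and BNC2 on chromosome Z from 32095223 to 32213622. No other listed gene overlapped any of them, so unstranded counting would not mix their reads with those of a listed neighbour. Of the genes beside TCF21, TBPL1 did not follow it and EYA4 was too low to compare. TBPL1 was at 5.03 and 3.30 CPM in node and junction, against 3.64 and 4.34 CPM in the chambers, and EYA4 stayed at 0.718 CPM or less in every library. HDGFRP3, next to BNC1, had 65.4 and 55.9 CPM, against 55.6 and 42.2 CPM, and was called in none of the planned comparisons. SH3G3, on the other side of BNC1, had 11.1 CPM in the node and 2.43 CPM in the junction, against 8.51 and 6.29 CPM, and was called lower in the junction than in the chambers, where BNC1 was called higher. The listed genes on either side of BNC2, the microRNA gga-mir-1779 and ENSGALG00000023289, had 0 counts in every library and allow no comparison.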

How the data were processed

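Per the labels' protocols, polyadenylated RNA was sequenced from both ends (36 bases), and Bowtie and TopHat are named in the submitters' processing notes. For the build, annotation, strandedness and counting program, the sources used here give nothing. Each of the 8 deposited tables gives its own library as CPM, and 7 also give, per the file headers, read counts of another library. Counts were matched by header name, differed from that library's CPM by at most 4.9e-11, and for the posterior plate were recovered from the deposited CPM (100% of values within 0.01 of whole reads). They were scaled by TMM (edgeR 4.0.16, R 4.3.3), with factors from 0.848 to 1.18, so that 1 read was 0.0541 to 0.109 CPM.

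Log2 ratios used a pseudocount of 1 CPM. Fold intervals were Clopper-Pearson, and ratios of folds were exact conditional odds ratios (SciPy 1.17.1). Total counts alone, DESeq2 1.42.0 size factors, other limits and leaving out libraries were the alternatives. Of 174 list genes 102 were found, 32 of them under a protein entry name. The members and lists were chosen with earlier results of these data known. Named genes were the members, the 5 nearest by r, and up to 4 called members of each list or otherwise its 2 highest. The mesothelial genes, CFI, PODXL, GATA4, ALCAM, TBX5, HAND2, GATA6, CFC1, GATA5, TGFB3, MSC and the flanking genes fall outside this rule. So do TAGLN, DES, SRF, CALD1, PDGFRB, COL1A2, DCN, FBLN2, THY1, MDK, HHEX, TTR, ALB, EPCAM, DLX5 and GRHL3. They were named after their values were seen. A count of 0 was read as up to 3 counts. No sequence was used. The result of 1 list is not reported here.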

Additional observations from a re-analysis of the deposited data

How the results depend on the processing

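All 3 genes were called higher in the node and in the junction than in both chambers under every alternative run: total counts alone, DESeq2 size factors, a pseudocount of 0.5 CPM, no minimum level, a 3-fold limit, and without either chamber. Without the ventricle the nearest log2 ratio of TCF21 became 3.04 in the node and 3.06 in the junction, in place of 2.52 and 2.54. In the node against the pacemaker field, 2 of 3 were called higher and, at a 3-fold limit, 0. Between heart and mesoderm none was called, and BNC1 and BNC2 could not be at the 5 CPM minimum. Without the chambers 1 was called higher, and without node and junction 1 was called lower. Total counts alone moved the median of all tested genes by 0.18 in node against chambers, 0.21 in node against junction, -0.32 in heart against mesoderm and -0.21 in node against field. It took TCF21 to 0.20 (from -0.02) in node against junction, 0.19 (0.40) in node against field and 0.18 (0.06) in field against the rest of the plate, which without the anterior plate was 0.40.

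Counts over all genes, higher and lower, were 304 and 143 in the node against the chambers; total counts gave 95 lower, a 3-fold limit 130 and 55, leaving out the atrium 681 and 449, and leaving out the ventricle 285 lower. In the junction, 205 and 150 became 70 and 43 at 3-fold, 642 and 430 with the atrium left out, and 342 and 308 with the ventricle left out. At 3-fold, node against junction went to 151 and 145 in place of 366 and 325, atrium against ventricle to 138 and 85 in place of 406 and 292, heart against mesoderm to 362 and 139 in place of 587 and 265, node against field to 924 and 353 in place of 1504 and 840, and anterior against posterior to 17 and 24 in place of 82 and 94. Total counts gave 472 lower in heart against mesoderm and 1261 lower in node against field, and leaving out node and junction gave 467 lower in heart against mesoderm. With no minimum level 8 in place of 5 genes were higher in the field and 165 in place of 94 lower in the anterior plate; lower genes in the field numbered 1 without the anterior and 4 without the posterior plate, in place of 0. The low counts of BNC1 and BNC2 in the chambers, 18 to 34, limit their folds there. No paired analysis was possible because each group is 1 library.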

Other observations

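Genes of epithelial to mesenchymal transition, by which epicardial and cushion cells leave their layer, were also read in the libraries where TCF21, BNC1 and BNC2 stood high. Of 8 found, 2 were called higher in the node and the same 2 genes in the junction; 1 was lower in the node and none in the junction. Over all tested genes 3.11% were higher and 1.46% lower in the node, and 2.11% higher and 1.54% lower in the junction, and the median of the list was 0.02 in the node and 0.31 in the junction. The other 5 genes were not called in either, among them TGFB3, at 80.96 and 57.8 CPM in node and junction, against 157 and 108 CPM in atrium and ventricle. SNAI2, a repressor of epithelial genes, had 28.9 CPM in the node and 40.9 CPM in the junction, against 8.30 CPM in the atrium and 7.81 CPM in the ventricle. TGFB2, a secreted growth factor, had 113 and 182 CPM, against 44.3 and 14.4 CPM. CDH1, the cadherin of epithelia, was the gene called lower, at 27.1 CPM in the node, against 68.4 and 67.6 CPM in the chambers, and stood at 74.4 CPM in the junction. SNAI2 shared with TCF21 a substantial level in the HH 8 plate, 82.7 to 95.8 CPM, and unlike TCF21 it was higher there than in any heart library.

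Another list touches a tissue in which TCF21 is known, the mesothelium of the septum transversum. Of its tested genes 1 of 6 was higher in the node than in both chambers and 0 of 5 in the junction, with 0 lower in both. Over all tested genes 3.11% were higher and 1.46% lower in the node, and 2.11% higher and 1.54% lower in the junction. The median log2 ratio of the list was 1.04 in the node and 0.79 in the junction, against -0.01 and -0.02 over all genes tested. The gene called was ISL1, a factor of second heart field and pacemaker cells, at 17.6 CPM in the node, against 0.343 and 0.434 CPM in atrium and ventricle, and it had 0.695 CPM in the junction. ID2, which binds E proteins without binding DNA, was the single gene found of 7 listed partners. It had 91.2 CPM in the node and 151 CPM in the junction, against 156 and 96.7 CPM in atrium and ventricle, and was not called.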
